A study of Homo sapiens with 6 samples.

Results

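Transcripts of the nuclear pore and of the nuclear transport machinery were followed in ARPE-19, an established line of human retinal pigment epithelium, after exposure to glucose oxidase, an enzyme that makes hydrogen peroxide from the glucose of the medium. The genes were chosen by their symbols: numbered nucleoporins (NUP), karyopherins (KPNA and KPNB), importins (IPO), exportins (XPO), transportins (TNPO), the small factors NXT1, NXT2 and NUTF2, and TPR, NDC1, SEH1L, SEC13, RAE1 and AAAS. This gave 54 of the 18132 genes that had a probe set with a single gene symbol, measured by 166 probe sets. The cells called 3 h here had been kept with glucose oxidase at 10 mU/ml over 3 h (3 arrays), and those called 0 h had none (3 arrays). The treatment protocol states that a plasmid encoding green fluorescent protein was introduced into all of them beforehand. The sample descriptions, however, give the 3 h arrays an alpha satellite version of that plasmid, so treatment and plasmid cannot be told apart. Titles place the untreated cells at 0 h, while the protocol can also be read as the same time without enzyme. Nothing says that replicates came from separate cultures, so p-values may measure technical spread alone.

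The nuclear pore is a channel through the nuclear envelope built from many copies of its nucleoporins, which form a scaffold of rings, a membrane anchor, a central channel of flexible phenylalanine-glycine repeats, filaments on the cytoplasmic face and a basket on the nuclear face. Importins and exportins carry proteins and RNA through that channel, loading and unloading with the help of the small GTPase RAN, while bulk messenger RNA leaves with NXF1 and its partner NXT1. In cell biology at large, oxidants are known to slow import by the classical importin alpha and beta route. RNA was amplified from its 3′ end, labelled with biotin and hybridised to 1 Affymetrix array per sample, and the values are on the log2 scale. Each gene was read from its brightest probe set, and 53 of the 54 lay above the floor of log2 4.64 set on the mean of the 6 arrays. The exception was NUP210L, a paralogue of the membrane nucleoporin NUP210, with a mean of 3.27 ± 0.04 at 3 h and 3.36 ± 0.28 at 0 h (SD, n = 3). KPNA2, a further importin alpha gene, shares its probe set with another symbol and was not analysed here.

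All values are from bulk RNA of arrays brought to nearly one distribution, so fewer cells, less RNA per cell and a change of total RNA cannot be told apart. The spike-in transcripts added as controls for labelling were lower on every 3 h array for all 24 probe sets (median log2 change -0.60). For actin, the 5′ signal minus the 3′ signal, a measure of how much of the transcript was copied, was -1.20 ± 0.06 at 3 h and -2.06 ± 0.07 at 0 h (log2, SD, n = 3). For GAPDH it was -0.13 ± 0.04 at 3 h and -0.39 ± 0.05 at 0 h. These differences run along with every gene below, and preparation of the RNA and treatment cannot be told apart. Of the pigment epithelium markers, the keratin genes KRT8 and KRT18 were bright (KRT8 11.9 at 3 h and 11.5 at 0 h), while the visual cycle genes RPE65 and RLBP1 were under the floor (RPE65 3.48 in both groups). Of the 9 epithelium markers tested, 4 were higher at 3 h and 1 lower (mean of the list 6.86 to 6.95 at 3 h and 6.78 to 6.81 at 0 h). Of 5 tested blood and endothelial markers 0 passed limma's threshold after adjustment (2 had an unadjusted p under 0.05). The list mean was 5.35 to 5.42 at 3 h and at most 5.39 at 0 h. PTPRC was under the floor, while CD3E, VWF, PECAM1, HBB and CD68 were above it. CD68 was bright, at 8.20 at 3 h and 8.25 at 0 h. Of 5 tested photoreceptor and neuronal markers 2 were lower at 3 h (list mean 5.40 to 5.45 at 3 h and 5.54 to 5.65 at 0 h), and RCVRN was under the floor. Of all tested genes 51.3% passed the same threshold, and the part of these markers in the results was not tested.

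Of the 53 genes tested, 12 rose and 19 fell, while 22 missed the threshold, an adjusted p under 0.05 in limma's fit over all 12221 tested genes. The called share was 58.5%, close to the 51.3% of all tested genes that were called. Upward calls made up 22.6% of the members and 20.6% of all tested genes, and downward calls 35.8% and 30.8%. The median log2 change was -0.03 among the members and -0.04 among all tested genes. The 3 h arrays lay wholly above or wholly below the 0 h arrays for 34 members, or 64.2%, where all tested genes gave 60.5%. Changes of at least 1.5-fold were called in 10 members, or 18.9%, against 9.03% of all tested genes, and in both directions. No test of the members as a set was made. Counted by calls, these genes thus moved both ways at a rate near the background.

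**Figure D1:**
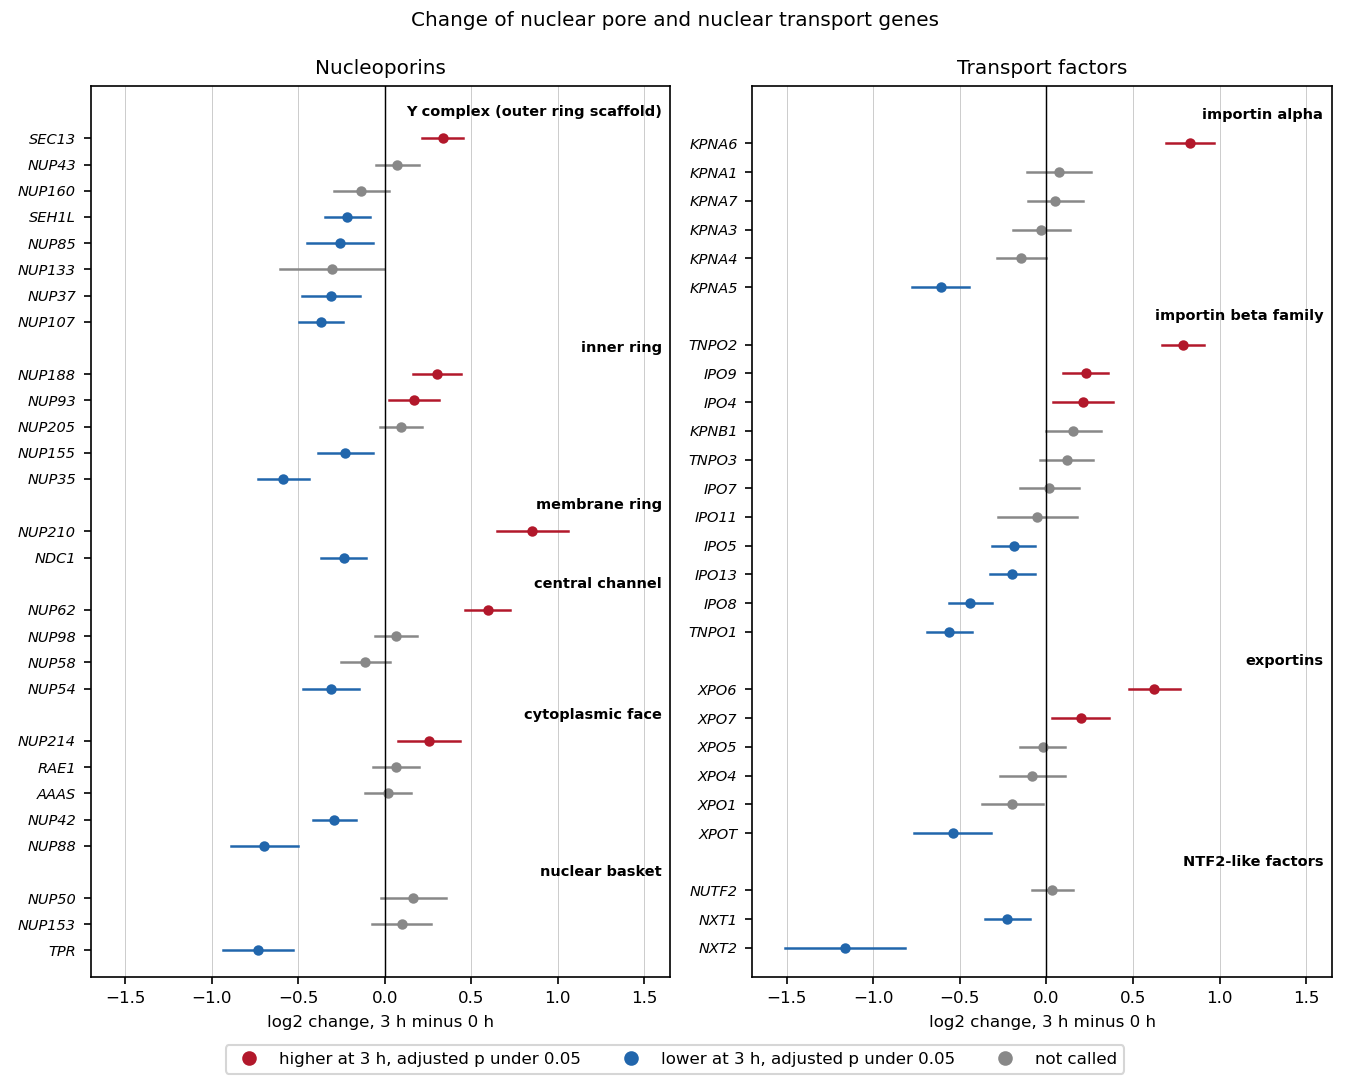
Log2 change of each tested member (3 h minus 0 h, horizontal axis), with points for the estimate and bars for its 95% interval from limma, grouped by place in the pore or by type of carrier. NUP210, KPNA6, TNPO2, XPO6 and NUP62 lie farthest to the right and NXT2, TPR, NUP88 and KPNA5 farthest to the left. Every role group holds genes on both sides of 0.

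**Figure D2:**
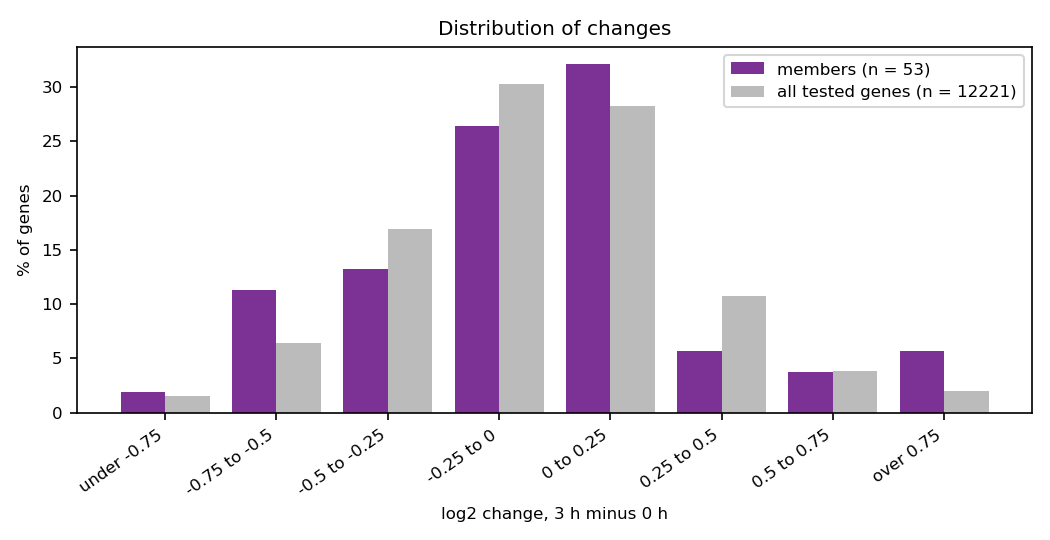
Share of the members and of all tested genes (vertical axis, percent) in bins of log2 change (3 h minus 0 h, horizontal axis). The bin from 0 to 0.25 holds 32.1% of the members and 28.3% of all tested genes, the bin below it 26.4% and 30.3%, and the rightmost bin 3 members (5.66%, against 2.04% of all).

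In the Y complex, which builds the outer rings, 4 of 8 members fell (NUP107, NUP37, NUP85 and SEH1L), 1 rose (SEC13) and 3 did not pass, with a median log2 change of -0.24. Of all tested genes 30.8% were called lower, and with 8 members the difference was not tested. NUP107 had log2 values of 8.92, 9.03 and 9.004 at 3 h, against 9.39, 9.35 and 9.32 at 0 h. All 3 h values lay below all 0 h values, and the gene fell by 0.37 (SE 0.06, n = 3, adjusted p = 0.000876). NUP37 had 8.12, 8.39 and 8.29 at 3 h, against 8.56, 8.60 and 8.58 at 0 h, and fell by 0.31 (adjusted p = 0.00725), again without overlap. SEC13, which also belongs to the COPII coat of vesicles that leave the endoplasmic reticulum, went the other way with 10.95, 10.96 and 10.91 at 3 h, against 10.62, 10.62 and 10.57 at 0 h, and rose by 0.33 (adjusted p = 0.000923). That probe set is of a kind that may detect other transcripts too. So are the brightest ones of NUP35, NUP43, NUP50, NUP58, RAE1, KPNA4, KPNA6, KPNB1, TNPO2, IPO5, IPO7, IPO8, IPO13 and NUTF2. The one SEC13 probe set without that mark stood at -0.15 and did not pass, so the SEC13 call rests on probe sets of that kind. Those did not move alike either: a further one rose by 0.47, while another, nearly as bright, stood at 0.05 and did not pass. SEH1L, shared with the GATOR complex of nutrient sensing, fell by 0.22, with its other probe set at 0.06 and no call without replicate 2 at 0 h or averaged over both. NUP85 fell by 0.26 on its brightest probe set, while another of its probe sets rose by 0.34 and one stood at 0.01. The NUP85 call ended without replicate 1 at 3 h or replicate 1 or 3 at 0 h. NUP43, NUP160 and NUP133 had changes of 0.07, -0.13 and -0.31 and were not called. One of the other probe sets of NUP160 fell by 0.27, and NUP133 was called without replicate 2 at 3 h and with an intensity trend in the variance.

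The inner ring, which lines the pore between the outer rings, was split. Calls covered 80% of its members, against 51.3% of all tested genes, a difference not tested. Of its 5 members NUP188 and NUP93 rose, NUP35 and NUP155 fell, and NUP205 did not pass (0.09, 95% interval -0.03 to 0.21). A dimmer probe set of NUP205 rose by 0.67, and the gene was called averaged over its probe sets and with the promoter trend in G and C removed. NUP35, a small protein that links this ring to the membrane, had log2 values of 8.37, 8.55 and 8.48 at 3 h, against 9.10, 8.99 and 9.06 at 0 h. The groups lay well apart and the gene was 1.5-fold lower (log2 change -0.59, SE 0.06, adjusted p = 0.000185), and all 4 of its probe sets fell, by 0.32 to 0.67. Without probe sets that may detect other transcripts its change was -0.32. NUP188, a large scaffold protein, had 8.66, 8.70 and 8.61 at 3 h, against 8.39, 8.26 and 8.40 at 0 h, and rose by 0.30 (adjusted p = 0.00336). NUP155, which holds the inner ring to the rest of the scaffold, had 7.52, 7.41 and 7.31 at 3 h, against 7.68, 7.67 and 7.57 at 0 h, and fell by 0.23 (adjusted p = 0.0239). That call ended without replicate 2 or 3 at 3 h (-0.23 and -0.17) or replicate 1 or 2 at 0 h (both -0.21). NUP93, at 0.17 with an adjusted p of 0.0495, stood just inside the threshold and was lost without any one array except replicate 3 at 3 h.

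Both tested genes of the membrane ring were called, in opposite directions, where 51.3% of all tested genes were called. NUP210, a glycoprotein that spans the nuclear membrane, had log2 values of 6.64, 6.83 and 6.68 at 3 h, against 6.04, 5.83 and 5.73 at 0 h. It was 1.81-fold higher at 3 h (log2 change 0.85, SE 0.09, adjusted p = 0.000155). On brightest probe sets this was the largest rise among the members. Averaged over its 2 probe sets NUP210 stood at 0.54, below NUP62 (0.89), KPNA6 (0.70), TNPO2 (0.63) and XPO6 (0.62). NDC1, the anchor that ties the scaffold to the membrane, had 8.31, 8.41 and 8.43 at 3 h, against 8.60, 8.60 and 8.67 at 0 h, and fell by 0.24 (adjusted p = 0.00847), with its 3 probe sets between -0.24 and -0.21. Because every tested gene of this ring was called, the promoters of both are shown here from RefSeq (GRCh38.p14, minus strand for both, 250 bases before to 50 after the start). The promoters of NUP62 (minus strand) and NUP35 (plus strand) follow, chosen after their values were seen because all 4 probe sets of each moved one way. The same held for other members whose promoters are not shown, among them NUP54, NUP214, IPO8 and XPO1. Capitals mark the motifs found on either strand.
NUP210, chr3:13420273-13420572: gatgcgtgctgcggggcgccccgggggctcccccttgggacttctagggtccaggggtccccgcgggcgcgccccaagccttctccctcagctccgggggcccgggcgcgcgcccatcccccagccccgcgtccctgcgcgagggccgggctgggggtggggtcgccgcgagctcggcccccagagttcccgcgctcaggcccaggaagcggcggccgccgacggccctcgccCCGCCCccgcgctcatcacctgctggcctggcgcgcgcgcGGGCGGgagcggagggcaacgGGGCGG
NDC1, chr1:53838247-53838546: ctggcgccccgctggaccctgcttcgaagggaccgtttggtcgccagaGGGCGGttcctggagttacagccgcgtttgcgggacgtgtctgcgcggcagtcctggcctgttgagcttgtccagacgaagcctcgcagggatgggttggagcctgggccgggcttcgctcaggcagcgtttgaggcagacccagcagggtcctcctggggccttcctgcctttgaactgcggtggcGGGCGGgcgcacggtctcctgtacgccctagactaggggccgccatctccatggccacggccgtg
NUP62, chr19:49929455-49929754: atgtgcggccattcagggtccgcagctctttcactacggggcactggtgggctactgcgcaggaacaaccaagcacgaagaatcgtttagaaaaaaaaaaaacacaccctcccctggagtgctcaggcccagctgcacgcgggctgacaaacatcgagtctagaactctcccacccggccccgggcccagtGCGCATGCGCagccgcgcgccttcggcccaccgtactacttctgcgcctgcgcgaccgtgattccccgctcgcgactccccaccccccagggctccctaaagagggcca
NUP35, chr2:183124193-183124492: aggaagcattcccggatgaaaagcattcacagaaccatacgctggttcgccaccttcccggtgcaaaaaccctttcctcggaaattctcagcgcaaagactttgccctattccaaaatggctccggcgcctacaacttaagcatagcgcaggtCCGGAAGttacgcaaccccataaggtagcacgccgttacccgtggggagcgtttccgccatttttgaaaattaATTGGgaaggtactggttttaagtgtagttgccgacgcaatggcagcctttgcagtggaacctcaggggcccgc

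The capitals in NUP210 are 3 GC boxes (GGGCGG, the Sp1 motif) and those in NDC1 are 2. NUP62 carries 1 match to the NRF1 motif, and NUP35 holds 1 CCAAT box and 1 ETS motif (CCGGAAG). G and C made up 81.3% of the NUP210 window, 68.0% of that of NDC1, 63.0% of that of NUP62 and 52.3% of that of NUP35. Promoter windows were found for 48 of the 54 members, and for the 14 with several listed starts the first was used. Among the 47 tested members with a window, the ETS motif was present in 36.2%, against 18.5% of the 10021 windows of tested genes, and the GC box in 53.2% against 69.3%. The CCAAT box was present in 44.7% and 36.3%, the core of the antioxidant response element (TGACNNNGC) in 19.1% and 15.0%, and the NRF1 motif in 6.38% and 2.24%. The AP-1 motif (TGACTCA) was in 0 of the 47 and in 3.29% of all. The E-box (CACGTG) was in 12.8% of members and 10.0% of all, and the TATA box (TATAAA) in 4.26% and 6.16%. Motifs were searched on both strands, and where hits of different motifs overlapped each was counted. A match describes the letters of the window only. The median G and C share was 65.0% in the windows of members that rose, 63.0% in those of members that fell and 64.0% in those not called. Over all tested genes it was 68.0%, 63.3% and 65.3%. Across the 47 members the change and that share had a Pearson r of 0.23 (Spearman rho 0.12), and across the 10021 genes 0.16 (0.16), points that share the same 6 arrays.

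In the central channel, 1 of 4 members rose, 1 fell and 2 did not pass (50% called, against 51.3% of all tested genes). NUP62, the repeat protein at the heart of the channel, had log2 values of 9.55, 9.58 and 9.46 at 3 h, against 8.98, 8.91 and 8.91 at 0 h. It was 1.51-fold higher (log2 change 0.60, SE 0.06, adjusted p = 0.000109), and its 4 probe sets rose by 0.60 to 1.24. NUP54, which forms a trimer with NUP62 and NUP58, had 9.07, 9.14 and 9.27 at 3 h, against 9.54, 9.50 and 9.38 at 0 h, and fell by 0.31 (adjusted p = 0.00663). NUP58, the other partner, had 8.25, 8.27 and 8.36 at 3 h, against 8.32, 8.46 and 8.44 at 0 h, with overlapping groups and a change of -0.11 (adjusted p = 0.159). Its probe sets differed, from -0.16 to 0.46, and both of these were called. The transcripts of one trimer thus stood at 0.60, -0.31 and -0.11. NUP98, a barrier nucleoporin often fused to other genes in leukaemia, had 7.56, 7.60 and 7.62 at 3 h, against 7.55, 7.54 and 7.49 at 0 h, and was not called (0.06, 95% interval -0.06 to 0.18), while its other 2 probe sets were called at 0.31 and -0.32.

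On the cytoplasmic face 2 of 5 members fell and 1 rose (60% called, against 51.3% of all tested genes). NUP88, which holds NUP214 at the pore, had 8.55, 8.84 and 8.54 at 3 h, against 9.38, 9.31 and 9.33 at 0 h. It was 1.62-fold lower (log2 change -0.70, SE 0.09, adjusted p = 0.000299), with the second replicate at 3 h the highest of that group and still below every 0 h array. Its other 4 probe sets had smaller changes, -0.32 to -0.03, and the average over all was -0.28. NUP214, the docking site of exportin 1 and also a leukaemia fusion partner, had 6.77, 7.06 and 6.84 at 3 h, against 6.62, 6.69 and 6.61 at 0 h, and rose by 0.25 (adjusted p = 0.0248), a call that ended without replicate 2 at 3 h (0.17) or replicate 1 or 3 at 0 h (both 0.24). NUP42, a repeat protein that binds the export factor GLE1, had 7.70, 7.66 and 7.75 at 3 h, against 7.98, 8.04 and 7.97 at 0 h. It fell by 0.29 (adjusted p = 0.00243), as did its 3 other probe sets above the floor. RAE1, a messenger RNA export factor, and AAAS, mutated in triple A syndrome, were not called (0.06 and 0.02).

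In the nuclear basket TPR alone of 3 members was called (33.3%, against 51.3% of all tested genes). TPR, the coiled-coil filament of the basket, had log2 values of 7.54, 7.25 and 7.49 at 3 h, against 8.27, 8.09 and 8.12 at 0 h. It was 1.66-fold lower (log2 change -0.73, SE 0.09, adjusted p = 0.00027) with a wide gap between the groups. Its other probe set above the floor stood at -0.10 and was not called, and the average over its 5 probe sets, 3 of them under the floor, was -0.31. NUP153, which anchors the basket, had 8.65, 8.75 and 8.85 at 3 h, against 8.54, 8.73 and 8.69 at 0 h, with overlapping groups (0.10, 95% interval -0.07 to 0.27). NUP50, a cofactor of importin alpha, had 8.98, 8.78 and 9.06 at 3 h, against 8.76, 8.87 and 8.70 at 0 h, and was not called (0.17), turning to -0.02 averaged over its 7 probe sets. It was called higher at 0.25 without replicate 2 at 3 h, while another of its probe sets was called lower at -0.25.

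**Figure D3:**
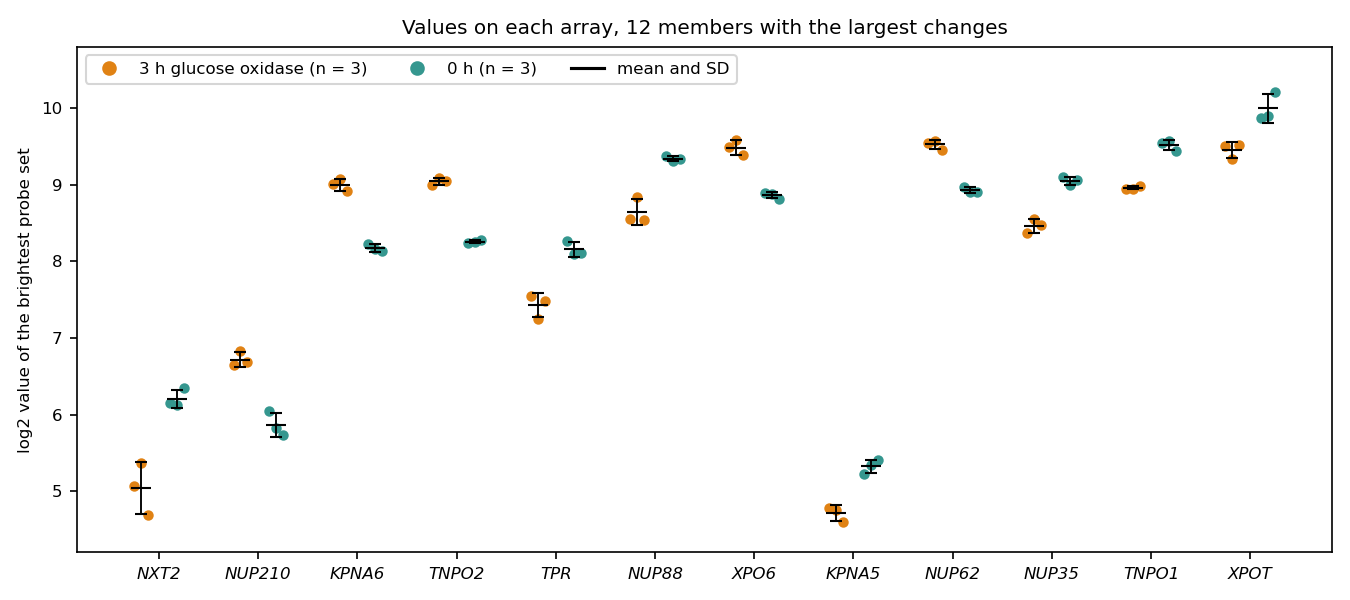
Log2 values (vertical axis) of the brightest probe set of the 12 members with the largest called changes, with 3 h arrays (orange, left in each pair) and 0 h arrays (green), 1 point per array and bars for the mean and SD (n = 3). The groups do not overlap in any of the 12, and the spread is widest for NXT2 at 3 h (SD 0.34).

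Among the importin alpha genes, the adaptors that read classical import signals, 2 of 6 were called and moved apart. The called share was 33.3%, and 51.3% over all tested genes. KPNA6 had log2 values of 9.01, 9.08 and 8.92 at 3 h, against 8.23, 8.16 and 8.13 at 0 h. It was 1.78-fold higher (log2 change 0.83, SE 0.06, adjusted p = 3.8e-05). Of its 5 probe sets 4 rose, by 0.79 to 1.25, and 1 fell by 0.33. KPNA5, of the same subfamily, had 4.78, 4.76 and 4.59 at 3 h, against 5.23, 5.34 and 5.40 at 0 h, and was 1.53-fold lower (log2 change -0.61, adjusted p = 0.000265). It has 1 probe set, close to the floor of 4.64 at 3 h. KPNA4 had 10.38, 10.22 and 10.25 at 3 h, against 10.40, 10.49 and 10.39 at 0 h, groups that did not overlap but a change of -0.14 that missed the threshold (adjusted p = 0.0866). With median centring it was called at -0.18. KPNA1, KPNA3 and KPNA7 had changes of 0.07, -0.03 and 0.05 and were not called, although 2 of the 5 probe sets of KPNA1 fell, by 0.26 and 0.54, and the second probe set of KPNA3 rose by 0.26. KPNA1 was called averaged over its probe sets.

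The importin beta family, the carriers that cross the pore, had 3 members higher, 4 lower and 4 not called of 11. Called were 63.6%, against 51.3% of all tested genes, a difference not tested. TNPO2 and TNPO1, close paralogues that import RNA-binding proteins such as HNRNPA1, went opposite ways. TNPO2 had 8.996, 9.09 and 9.05 at 3 h, against 8.25, 8.25 and 8.28 at 0 h, and was 1.73-fold higher (log2 change 0.79, SE 0.05, adjusted p = 2.84e-05). TNPO1 had 8.95, 8.95 and 8.98 at 3 h, against 9.55, 9.57 and 9.44 at 0 h, and was 1.48-fold lower (log2 change -0.56, SE 0.06, adjusted p = 0.000137). Neither pair of groups overlapped. The probe sets of TNPO1 did not move together: a second one fell by 0.36, one stood at -0.02 and a dimmer one rose by 0.58, with an average of -0.21 over all 5. IPO8, a carrier of SMAD and Argonaute proteins, had 7.19, 7.16 and 7.25 at 3 h, against 7.61, 7.69 and 7.63 at 0 h, and fell by 0.44 (adjusted p = 0.000315), with all 4 probe sets below 0. IPO5 and IPO13 fell by 0.19 and 0.20, and IPO9 and IPO4 rose by 0.23 and 0.21. The other tested probe sets of IPO9 stood at -0.03 and 0.04, and IPO9 was not called averaged over all. The other probe set of IPO13 stood at -0.04, and IPO13 was not called averaged over both. Those of IPO5 stood at -0.06, not called, and -0.64, called lower. Without probe sets that may detect other transcripts neither IPO5 nor IPO13 was called. The IPO5 call ended without replicate 2 at 3 h or 3 at 0 h, the IPO13 call without replicate 3 at 3 h or 2 or 3 at 0 h, and the IPO4 call without replicate 1 or 3 at 3 h or 2 or 3 at 0 h. KPNB1, the main carrier of the classical route, had 11.42, 11.26 and 11.48 at 3 h, against 11.20, 11.21 and 11.29 at 0 h, with overlapping groups and a change of 0.16 (adjusted p = 0.0934). Of the other 4 probe sets 3 rose, by 0.41 to 0.69, and KPNB1 was called at 0.42 averaged over its probe sets and at 0.22 without replicate 2 at 3 h. TNPO3, which imports SR splicing factors, was not called (0.12), although its 2 other probe sets rose by 0.45 and 0.48 and it was called averaged over all 3. IPO7 and IPO11 stood at 0.02 and -0.05, and another probe set of IPO7 fell by 0.40.

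Of the 6 exportins 2 rose, 1 fell and 3 did not pass (50% called, against 51.3% of all tested genes). XPO6, the exporter of actin from the nucleus, had log2 values of 9.49, 9.58 and 9.39 at 3 h, against 8.89, 8.89 and 8.82 at 0 h. It was 1.54-fold higher (log2 change 0.62, SE 0.06, adjusted p = 0.000149) on its only probe set. XPOT, the exporter of transfer RNA, had 9.50, 9.34 and 9.52 at 3 h, against 9.87, 9.90 and 10.22 at 0 h, and was 1.46-fold lower (log2 change -0.54, SE 0.10, adjusted p = 0.00202), also on 1 probe set, with replicate 3 at 0 h above the other 2. XPO7 had 7.76, 7.56 and 7.63 at 3 h, against 7.50, 7.35 and 7.51 at 0 h, and was just inside the threshold (0.20, adjusted p = 0.0474). It was not called without any one array except replicate 2 at 3 h, while its other 2 probe sets rose by 0.25 and 0.29. XPO1, the general exporter of proteins with leucine-rich signals, had 9.06, 9.16 and 9.30 at 3 h, against 9.37, 9.45 and 9.29 at 0 h, and its groups overlapped (-0.20, adjusted p = 0.0601). Its other probe sets stood between -0.54 and -0.18, and XPO1 passed at -0.31 averaged over all 4. It also passed with quantile normalization, median centring, the higher floor, the intensity trend and array weights, and without replicate 3 at 3 h (-0.26). XPO4 and XPO5, carriers of the translation factor eIF5A and of microRNA precursors, were not called (-0.08 and -0.02). A second probe set of XPO4 fell by 0.36, and the second of XPO5 rose by 0.24.

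NXT2 fell most of all members. A paralogue of the NXF1 partner NXT1, it had log2 values of 5.07, 5.37 and 4.69 at 3 h, against 6.15, 6.13 and 6.34 at 0 h. It was 2.24-fold lower (log2 change -1.16, SE 0.15, adjusted p = 0.000399), rank 55 by size of change among the 12221 tested genes. The 3 h arrays spread widely and the lowest was near the floor, and the other 2 probe sets fell by less, 0.42 and 0.44, for an average of -0.67. NXT1 itself had 9.17, 9.19 and 9.09 at 3 h, against 9.41, 9.32 and 9.40 at 0 h, and fell by 0.23 (adjusted p = 0.0106), without overlap. NUTF2, which returns RAN to the nucleus, had 11.38, 11.38 and 11.32 at 3 h, against 11.36, 11.29 and 11.33 at 0 h, and was not called (0.03, 95% interval -0.09 to 0.15), turning to -0.0035 with median centring and -0.20 without probe sets that may detect other transcripts. One of its dimmer probe sets rose by 0.20.

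Probe sets of one gene did not always move alike. In a fit over all 29576 probe sets above the floor, of which 51.4% were called, 153 belonged to the members, and 36 of these rose and 48 fell (54.9%). Of 40 members with at least 2 such probe sets, 6 had calls in both directions: KPNA6, NUP43, NUP58, NUP85, NUP98 and TNPO1. That is 15.0%, where all 7120 genes with at least 2 gave 6.05%. Members had a mean of 3.50 probe sets and those genes 3.11, and the shares were not tested against each other. The brightest probe sets of IPO4, NUP93 and XPO7, called in the fit over genes, missed the threshold in this limma fit (adjusted p = 0.0505, 0.060 and 0.056). Where the brightest probe set was called in this fit, all others shared its sign in 15 of 21 members (71.4%). The share was 73.6% of such genes over the array.

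**Figure D4:**
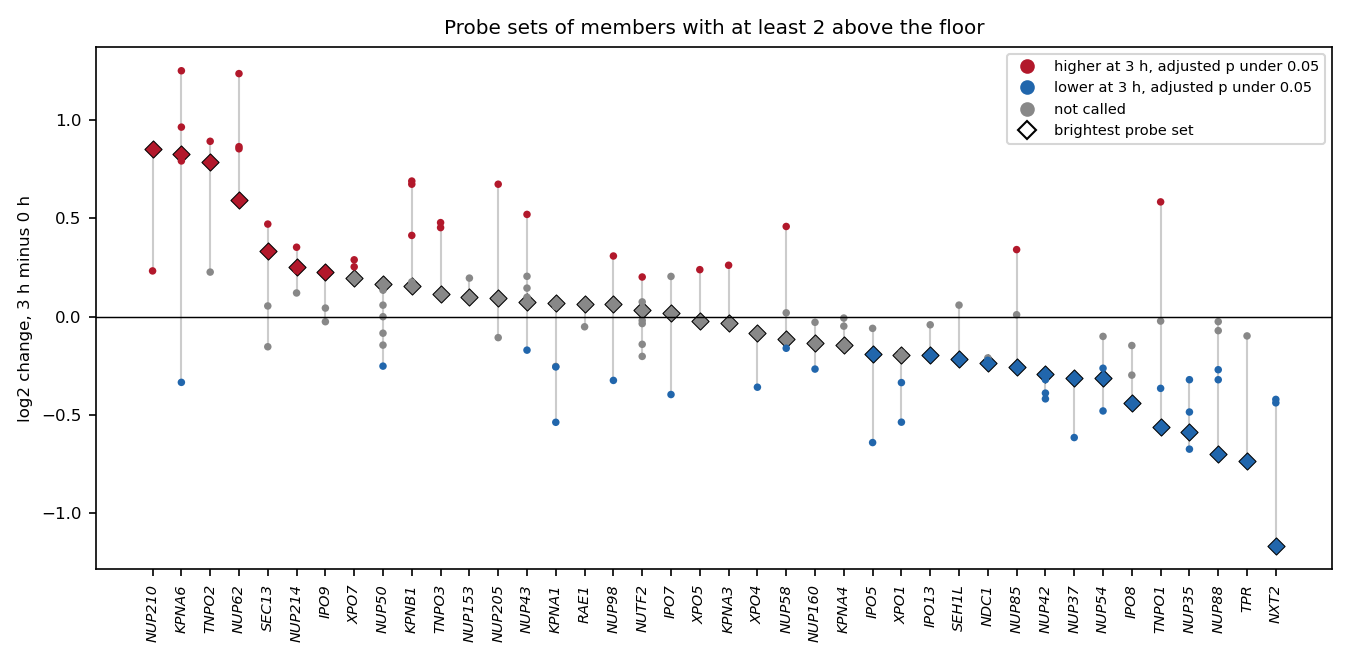
Log2 change (3 h minus 0 h, vertical axis) of every probe set above the floor for the 40 members with at least 2, ordered by the brightest probe set (diamond), with other probe sets as circles. Colours give the call in the fit over probe sets, where the brightest one of XPO7 was not called. NUP62, NUP210, NUP35, NUP37, NUP42 and NXT2 have all their probe sets above the floor called on one side. TNPO1, KPNA6, NUP85, NUP98, NUP58 and NUP43 have calls on both sides of 0.

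Genes that work with the members but fall outside the symbol rule were counted in the same way. Of 56 listed, 50 were tested, of which 11 rose and 18 fell (58.0%, against the 51.3% of all tested genes). Among other nucleoporins, the membrane anchor POM121 had 8.72, 8.56 and 8.50 at 3 h, against 7.45, 7.49 and 7.29 at 0 h, and was 2.27-fold higher (adjusted p = 2.84e-05). With NUP210 it rose, while NDC1, the remaining transmembrane nucleoporin tested, fell. POM121 has near-identical copies in the genome, which this probe set may not separate. RANBP2, the large filament protein of the cytoplasmic face, had 8.15, 8.43 and 8.17 at 3 h, against 9.21, 9.08 and 9.19 at 0 h, and was 1.88-fold lower (adjusted p = 9.66e-05), and AHCTF1, which seeds pores on chromatin, had 5.72, 5.71 and 5.96 at 3 h, against 6.45, 6.43 and 6.42 at 0 h, and fell by 0.64. RANBP2 also belongs to a family of near-identical copies. GLE1 and NUP62CL were not called (-0.04 and -0.08).

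In the list of genes of the RAN cycle and of carrier recycling, 2 of 9 rose and 4 fell. Together that is 66.7%, against 51.3% of all tested genes, a difference not tested. Those that fell were CSE1L, RANBP6, RANBP17 and RANGRF. RANGAP1, which makes RAN hydrolyse its GTP at the pore, had 10.12, 9.96 and 10.07 at 3 h, against 9.56, 9.49 and 9.50 at 0 h, and rose by 0.53 (adjusted p = 0.000212), and its helper RANBP1 rose by 0.28. CSE1L, which brings importin alpha back to the cytoplasm, had 10.31, 10.33 and 10.26 at 3 h, against 10.63, 10.52 and 10.64 at 0 h, and fell by 0.30 (adjusted p = 0.00266), and RANBP17 fell by 0.52. Averaged over its probe sets CSE1L stood at -0.17. At 3 h RANBP17 had a mean of 4.75, close to the floor of 4.64. RAN had 12.998, 13.01 and 12.99 at 3 h, against 12.98, 13.03 and 12.97 at 0 h, groups that overlapped and a change of 0.01 (95% interval -0.11 to 0.13), which turned to -0.03 with median centring. RCC1, which loads RAN with GTP, likewise stood at 0.01 (95% interval -0.11 to 0.14), or -0.02 with median centring. Among 18 tested genes of messenger RNA export 4 rose and 7 fell (61.1% called, against 51.3% of all tested genes). SARNP and THOC1, of the TREX complex, fell by 0.51 and 0.43, and ENY2 and PCID2, of the TREX-2 complex, by 0.42 and 0.39. Averaged over its probe sets THOC1 stood at -0.19. PCID2 was not called without probe sets that may detect other transcripts (-0.12). NXF1 was not analysed here. The snRNA carriers PHAX and SNUPN were not called (-0.11 and -0.12), although PHAX was called at -0.29 averaged over its probe sets.

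In the lamina and envelope 3 of 13 genes rose and 4 fell (53.8% called, against 51.3% of all tested genes). LMNB2, a B-type lamin, had 8.40, 8.31 and 8.47 at 3 h, against 7.32, 7.26 and 7.33 at 0 h, and was 2.13-fold higher, and LMNA, the gene of lamins A and C, had 10.76, 10.67 and 10.72 at 3 h, against 9.78, 9.74 and 9.75 at 0 h, and was 1.95-fold higher (adjusted p = 1.13e-05 and 1.13e-05). Averaged over its probe sets LMNA stood at 0.60. SUN2, which couples the lamina to the cytoskeleton, rose by 0.48 and its partner SYNE1 fell by 0.49. Averaged over its probe sets SUN2 stood at 0.74. Of the genes of the SUMO pathway, which acts on RANGAP1 at the pore, 1 of 3 tested rose and 1 fell. The called share there was 66.7%. SENP1, a SUMO protease, had 5.82, 5.68 and 5.58 at 3 h, against 6.51, 6.59 and 6.48 at 0 h, and was 1.79-fold lower (adjusted p = 6.72e-05), or -0.34 on the log2 scale averaged over its probe sets. PIAS4 rose by 0.42 and PIAS1 stood at -0.14, and PIAS4 was not called without probe sets that may detect other transcripts (0.14).

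**Figure D5:**
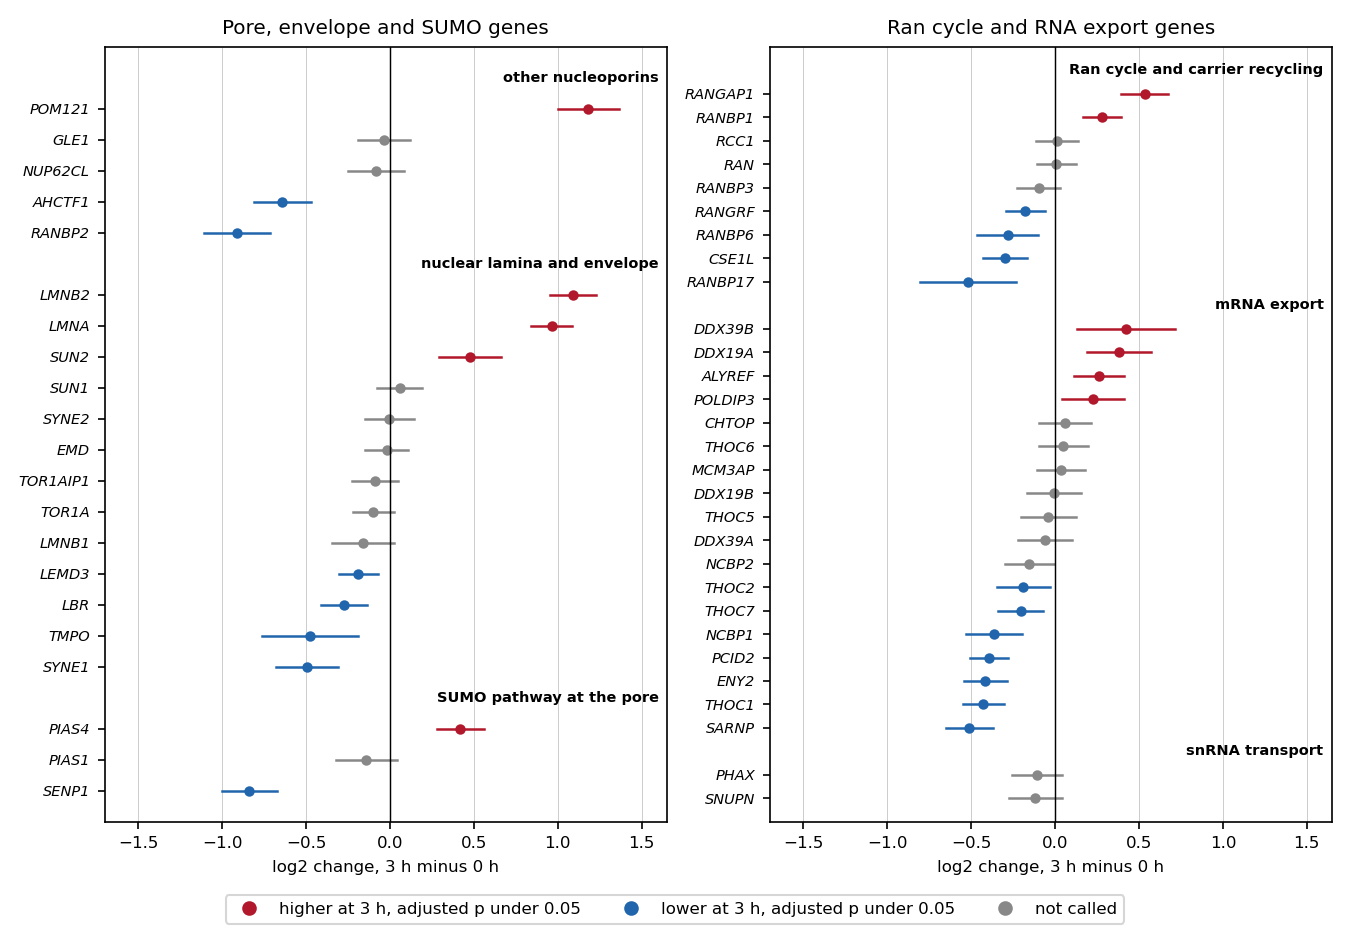
Log2 change (3 h minus 0 h, horizontal axis) of the 50 tested genes that work with the pore, carriers and RNA export, with 95% intervals from limma and colour for the call. POM121, LMNB2 and LMNA lie farthest to the right and RANBP2, SENP1 and AHCTF1 farthest to the left.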

How the data were processed

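Total RNA of 6 samples was measured on 1 array each, with groups assigned by title. The deposited table holds log2 values for 49372 probe sets, a scale read from the values (array medians 5.30 to 5.34). Per the submitters' processing notes MAS5 and RMA were used, without version, role or order, and the sources used here give no further step. Symbols came from the platform annotation: 44988 probe sets had 1, 1832 several and 2473 none, and the 79 controls were left out. Identifiers of 44961 matched the RefSeq table of GRCh38.p14. Each gene was read from its brightest probe set, above a floor at the 40th percentile of probe set means (log2 4.64). The test was limma 3.58.1 (lmFit, eBayes; R 4.3.3), adjusted by Benjamini-Hochberg over 12221 genes at 0.05, and changes are 3 h minus 0 h. The step was tested on simulated data. Figures used matplotlib 3.10.9.

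The members, their roles and the lists of other genes were chosen with earlier results of these data known. Named with values on every array were the 12 called members with the largest change and no overlap, up to 3 of each role with the smallest p, and XPO1, KPNB1, NUP98, NUP153, TPR and NXT1, while of each other list up to 4 with the smallest p, plus RAN, RCC1, RANGAP1, CSE1L and RANBP2, were named. Other members are given by their change. The number of arrays limits the precision. Probe sets ending in _s_at or _x_at may detect other transcripts. Alternatives covered normalization, floor, probe set choice, variance moderation, array weights, the replicate block, threshold and single arrays left out. Base composition (loess span 0.5) was added after the data were seen, as was leaving out probe sets ending in _s_at or _x_at. Protein sequences were not used here.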

Additional observations from a re-analysis of the deposited data

How the results depend on the processing

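Of the 31 called members, 4 were tested and kept their call under all 18 alternatives (KPNA6, NUP210, NUP88 and XPOT). Counting only the alternatives in which a member was tested, 19 kept their call. Whichever single array was left out, 22 kept it. The other 9 were IPO4, IPO5, IPO13, NUP85, NUP93, NUP155, NUP214, SEH1L and XPO7. No called member was called in the opposite direction under any alternative run. Without single arrays, members called higher ranged from 8 to 12, members called lower from 16 to 19, and the median change of the members from -0.10 to -0.0028. With probe sets ending in _s_at, _x_at or _a_at left out, 3803 genes were tested and 22 of the 31 called members no longer, which left 3 members higher and 4 lower, 3 and 5 of the other transport genes, and 697 and 995 of all genes. With the promoter G and C trend removed, 10 of the other transport genes were lower instead of 18. Only genes with a promoter window were tested there, and how far that accounts for the difference was not tested. Some changes turned sign. SEC13, called at 0.33, stood at -0.15 without probe sets ending in _s_at or _x_at, and at the same value with _a_at left out too. In the same order, NUTF2 stood at -0.20 and -0.035, and under the first NUP58 turned to a call at 0.46 (-0.11 on its brightest probe set) and NUP50 to -0.14 (0.17). Averaged over probe sets NUP58 was 0.051, NUP50 -0.017, NUTF2 -0.0024 and RAN -0.0074. With median centring NUTF2 was -0.0035, RAN -0.029 and RCC1 -0.023. Without single arrays RCC1 ranged from -0.017 (without replicate 2 at 0 h) to 0.037 and RAN from -0.0051 (without replicate 3 at 0 h) to 0.029. With the promoter trend removed RAN was -0.077 and NUP62CL 0.0060. The causes of these turns were not tested. The main fit took no pairing by replicate number. Deviations of same-numbered arrays correlated at -0.04, -0.02 and -0.19 across genes. Of all pairs the highest were 3 h replicate 1 with 0 h replicate 3 (0.17) and 3 with 2 (0.17). With 3 arrays per group these correlations cannot show whether the arrays were paired. With the replicate number as a block 11 members were higher and 19 lower, and NUP93 lost its call.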
